A study of Mus musculus with 12 samples.

Results

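Chemokines and their receptors were examined in mouse kidney, as all genes of the array whose symbol begins with Ccl, Cxcl, Cx3cl, Xcl, Ccr, Cxcr, Cx3cr, Xcr or Ackr followed by a digit. Of 19938 genes measured, 56 met this rule. They comprised 34 ligands, 18 signalling receptors and 4 atypical receptors. The RefSeq gene table held 67 symbols of this form, and the other 11, among them the copies of Ccl21 and Ccl27, were not analysed here.

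Total kidney RNA of female mice was measured on 12 Affymetrix whole-transcript arrays, 4 in each of 3 groups. The wild-type (WT) groups carried the strain label C57BL/6 and received either recombinant FGF23 at 500 ng per g body weight or 100 µl of saline vehicle. The KL null group lacked klotho, the co-receptor through which the hormone FGF23 acts in kidney, carried the strain label 129/SvEv/C57BL/6 and received the same saline. All injections were intraperitoneal, all mice had been kept on standard diet for 5 to 8 weeks, and kidneys were taken 1 hour after injection. The protocol describes the WT mice as littermates, yet each genotype has a strain label of its own, so the effects of the 2 cannot be told apart. Whether the 4 arrays of a group stand for 4 mice is not said in the labels, and p-values here reflect only the variation among these samples, which may be technical. No null allele, promoter or age is described in the labels.

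Chemokines are small secreted proteins that steer leukocytes, and they are classed as CC, CXC, CX3C or C by the spacing of the cysteines near their amino terminus. They signal through G-protein-coupled receptors on the target cell, which turn a ligand gradient into directed movement, while the atypical receptors (Ackr) bind ligand without G-protein signalling. In kidney, tubular, endothelial and resident myeloid cells can make chemokines, and the CC ligands are best known for recruiting monocytes and the CXC ligands with a Glu-Leu-Arg motif for recruiting neutrophils.

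All values are log2 expression values, on which a difference of 1 is a doubling of signal, and levels of different genes were not set against each other. Calls were made at an adjusted p (Benjamini-Hochberg, all 19938 genes) below 0.05 in limma's moderated test, and "rose" and "fell" are used only for called genes. The klotho gene Kl read 10.44 to 10.74 in the 8 WT arrays and 9.66 to 9.80 in the 4 KL null arrays. It was lower in every KL null array, but the exons its probes cover are not given in the sources used here. The kidney genes Slc34a1 and Umod had mean signals of 12.93 and 12.72 in WT vehicle kidneys. The standard deviation of the values on an array ran from 2.166 to 2.281 and was lowest in FGF23 replicates 1 and 2.

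In KL null kidneys, 4 CC ligands and 1 CC receptor rose against WT vehicle. They were Ccl9 (2.94-fold), Ccl6 (2.17-fold), Ccl3 (1.7-fold), Ccl2 (1.39-fold) and Ccr2 (2.13-fold), the receptor for Ccl2. None of the 13 Cxcl ligands, 6 Cxcr receptors or 4 atypical receptors passed the test. These 5 of 56 members are 8.93%, against 3.58% of all genes that were called higher. No member fell, against 4.44% of all genes called lower. After median centring of the arrays the same 5 members were called, while the calls over all genes moved from 713 higher and 885 lower to 428 and 1239. The members' median log2 difference was 0.09, against 0.02 over all genes, and their differences ran from -1.70 to 1.56. The calls fell on 4 of 34 ligands and 1 of 18 signalling receptors, and within the ligands on 4 of 19 Ccl genes. Without KL null replicate 3 the calls were 3, Ccl6, Ccl9 and Ccr2. With further quantile normalization the called members were Ccl6, Ccl9, Ccr2 and Cxcl12, and in an ordinary model without moderation only Ccl6 and Ccl9.

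Ccl6 and Ccl9, the latter also known as macrophage inflammatory protein 1 gamma, are rodent CC ligands that act on monocytes and macrophages. Ccl6 read 6.25, 6.46, 6.28 and 6.20 in WT vehicle replicates 1 to 4, 5.91, 6.32, 6.54 and 6.49 in the FGF23 group and 6.90, 7.68, 7.44 and 7.63 in KL null. Every KL null array lay above all 8 WT arrays, and KL null replicate 1 was the lowest of its group. The group means were 6.30 ± 0.11, 6.32 ± 0.29 and 7.41 ± 0.36 (SD, n = 4 each). The KL null difference from vehicle was 1.11 on the log2 scale (SE 0.162, adjusted p = 0.000717, limma).

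Ccl9 read 5.68, 5.71, 5.58 and 5.09 in WT vehicle, 5.77, 5.79, 5.90 and 5.60 in the FGF23 group and 6.29, 7.91, 7.06 and 7.02 in KL null. All 4 KL null arrays again exceeded all 8 WT arrays, with replicate 1 the lowest and replicate 2 the highest of the group. The difference from vehicle was 1.56 (SE 0.241, adjusted p = 0.00122, limma), the largest positive difference among the 56 members. Ccl6 and Ccl9 are neighbours in the chromosome 11 cluster of CC ligands, which also holds Ccl3 and Ccl2. That chromosome carries 14 of the members, and Ccl4, Ccl5, Ccl7, Ccl8, Ccl11, Ccl12 and Ccl1 on it did not pass the test.

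The promoters of this neighbouring pair are shown because both genes rose, and that of Cxcl10 because it is the 1 member whose window holds all 3 motifs searched. Each window is the 250 bases before the gene's RefSeq start, from GRCm38.p6, read 5′ to 3′ on the gene's strand, which is the minus strand for all 3 genes. They lie at chr11:83578637-83578886 for Ccl9, chr11:83593088-83593337 for Ccl6 and chr5:92348890-92349139 for Cxcl10. Capitals mark matches on either strand to the kappaB consensus, bound by NF-kappaB, to TGANTCA, and to the core of the interferon-stimulated response element (ISRE). In TGANTCA the N stands for any base.
Ccl9: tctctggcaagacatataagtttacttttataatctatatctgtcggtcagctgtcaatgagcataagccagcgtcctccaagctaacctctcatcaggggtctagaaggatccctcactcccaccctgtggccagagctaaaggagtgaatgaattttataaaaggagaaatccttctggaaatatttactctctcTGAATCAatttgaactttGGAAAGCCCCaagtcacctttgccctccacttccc
Ccl6: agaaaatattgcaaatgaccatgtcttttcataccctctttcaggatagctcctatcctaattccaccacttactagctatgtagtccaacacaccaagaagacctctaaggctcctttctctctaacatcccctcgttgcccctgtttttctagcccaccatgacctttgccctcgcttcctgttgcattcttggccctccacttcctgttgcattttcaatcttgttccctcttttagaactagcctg
Cxcl10: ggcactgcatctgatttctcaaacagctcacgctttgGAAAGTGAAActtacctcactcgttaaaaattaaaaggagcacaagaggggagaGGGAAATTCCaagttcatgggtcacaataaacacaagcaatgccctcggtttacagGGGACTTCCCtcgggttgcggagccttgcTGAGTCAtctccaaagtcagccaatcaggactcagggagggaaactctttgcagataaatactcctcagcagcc
Ccl9 has a TGANTCA match 53 to 47 bases before the start and a kappaB match, on the opposite strand, 35 to 26 bases before it. The Ccl6, Ccl3 and Ccr2 windows hold 0 matches, which says only that these letters are not there. Ccl2, the other called gene, had no window among those searched. Cxcl10, a ligand induced by interferon, has 2 kappaB matches, 159 to 150 and 103 to 94 bases before the start, with a TGANTCA match at 74 to 68 and an ISRE core match at 213 to 204. The kappaB consensus occurs in 3.9% of 32851 promoter windows of this length and in 9 of the 44 member windows (20.5%), which belong to 42 member genes. Those 9 are of Ackr2, Ccl20, Ccl9, Ccr3, Ccr6, Cxcl1, Cxcl10, Cxcl2 and Cxcl3. TGANTCA occurs in 6.75% of all windows and 4 member windows, and the ISRE core in 2.98% of all windows and 3 member windows. The motifs do not overlap in the windows shown. A match is a description of the letters and not a binding site.

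**Figure D1:**
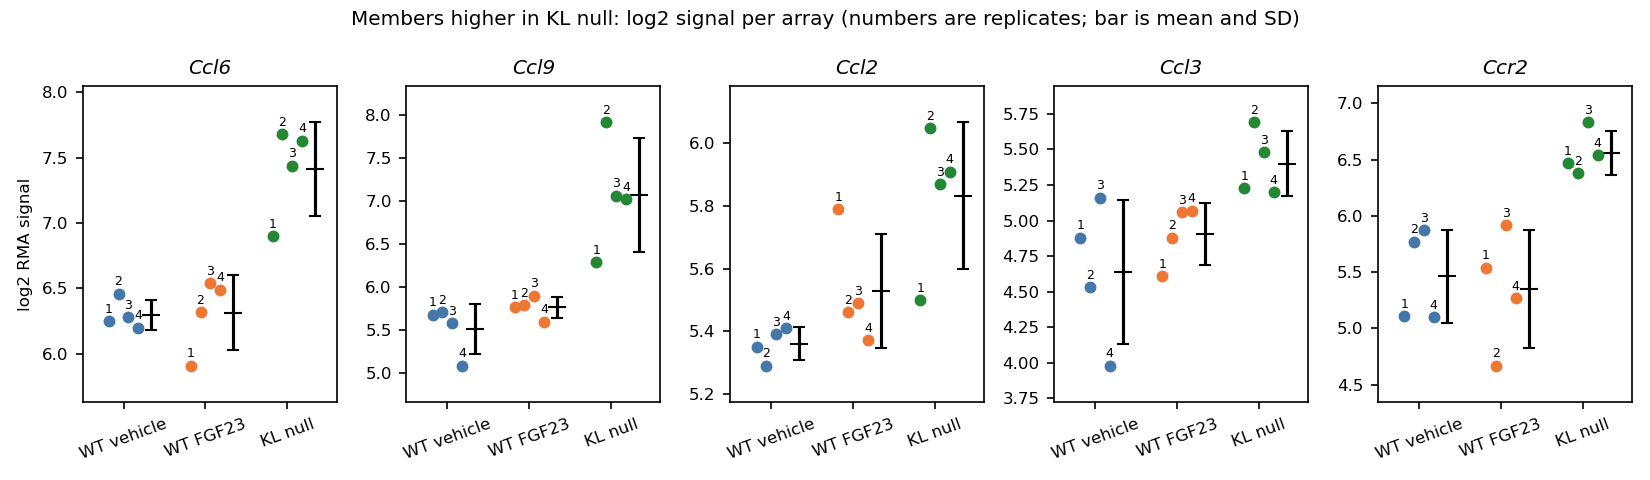
Log2 signal of Ccl6, Ccl9, Ccl2, Ccl3 and Ccr2 in each array, by group (4 arrays each), with points numbered by replicate and a bar at the mean with the SD; the vertical axis differs between panels and does not start at 0. KL null replicate 1 is the lowest KL null array for Ccl6, Ccl9 and Ccl2, and only for Ccl2 does it fall below a WT array (5.50 against 5.79 in FGF23 replicate 1).

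Ccl2, monocyte chemoattractant protein 1, is the main ligand that draws inflammatory monocytes out of the blood through Ccr2. It read 5.35, 5.29, 5.39 and 5.41 in WT vehicle, 5.79, 5.46, 5.49 and 5.37 in the FGF23 group and 5.50, 6.05, 5.87 and 5.91 in KL null. The KL null arrays lay above every vehicle array, but KL null replicate 1 was below FGF23 replicate 1. The difference from vehicle was 0.47 (SE 0.115, adjusted p = 0.0205, limma). The call was lost without any 1 of vehicle replicates 1, 2 or 3 or KL null replicates 2, 3 or 4, with further quantile normalization and in an ordinary model without moderation, with adjusted p up to 0.0692.

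Ccr2 read 5.11, 5.77, 5.87 and 5.10 in WT vehicle, 5.54, 4.67, 5.92 and 5.27 in the FGF23 group and 6.47, 6.38, 6.83 and 6.54 in KL null. The lowest KL null array stood above the highest of the 8 WT arrays, which was 5.92, and the 4 KL null arrays spread less than the WT arrays. The group means were 5.46 ± 0.41 in vehicle and 6.55 ± 0.19 in KL null (SD, n = 4 each), a difference of 1.09 (SE 0.23, adjusted p = 0.00918, limma).

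Ccl3, macrophage inflammatory protein 1 alpha, attracts monocytes and T cells through receptors that include Ccr1. It read 4.88, 4.53, 5.16 and 3.98 in WT vehicle, 4.61, 4.88, 5.06 and 5.07 in the FGF23 group and 5.23, 5.69, 5.48 and 5.20 in KL null. All KL null arrays lay above all WT arrays, the closest being KL null replicate 4 and vehicle replicate 3, and vehicle replicate 4 was the lowest of the 12. The difference from vehicle was 0.76 (SE 0.2, adjusted p = 0.0294, limma). The call was lost without vehicle replicate 2 or 4, without KL null replicate 2 or 3 and with further quantile normalization, with adjusted p up to 0.0928, and in an ordinary model without moderation (0.107). Ccr1, a receptor of Ccl3, Ccl6 and Ccl9 given here after its values were seen, read 3.50 in vehicle and 3.41 in KL null, a difference of -0.09 (adjusted p = 0.802, limma; 95% interval -0.39 to 0.21). Its mean over all arrays was 3.43, a dim signal whose height above background is unknown, so a change in Ccr1 could go unseen.

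Members whose 4 KL null arrays lay above all 4 vehicle arrays numbered 7 (12.5%), against 6.35% of all genes, and none lay wholly below, against 7.44%. They were the 5 called genes with Cxcl12 and Cxcr4. At an unadjusted p below 0.05 there were 16 members, against 21.3% of all genes, and 14 of them were higher (25%, against 10.9% of all genes) and 2 lower. The 95% interval of the KL null difference lay within 2-fold in either direction for 50 of 56 members, the exceptions being Ccl3, Ccl6, Ccl9, Ccr2, Cxcl10 and Ccl28. For the 40 members with a mean signal below 6, folds are compressed, so the intervals bound only the measured difference.

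**Figure D2:**
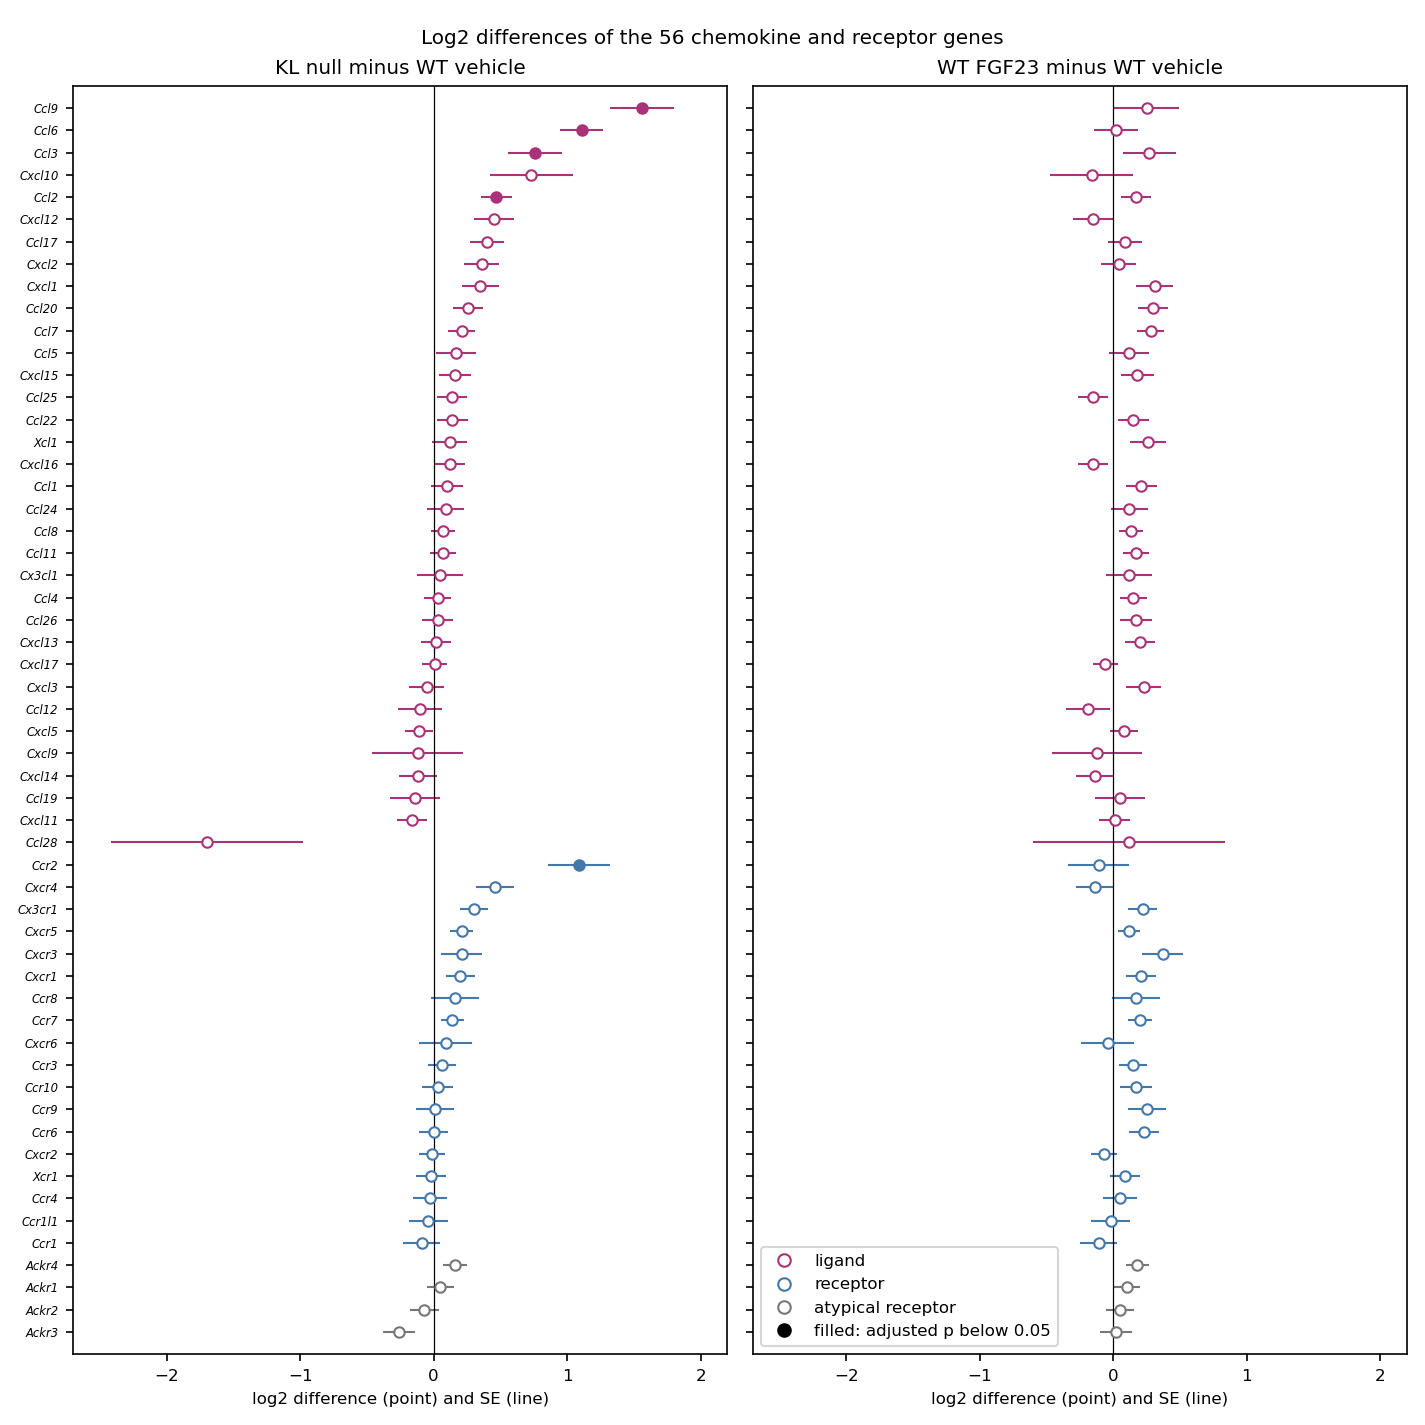
Log2 differences (points) with their SE (lines) of all 56 members, KL null minus WT vehicle at left and WT FGF23 minus WT vehicle at right, ordered by role and by the KL null difference; filled points have an adjusted p below 0.05. Filled points are Ccl9, Ccl6, Ccl3, Ccl2 and Ccr2, all at left, and both panels share the vehicle arrays; Ccl28 has the widest SE, 0.719.

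The chemokine axis of Cxcl12, which retains and positions leukocytes and progenitors, comprises its receptor Cxcr4 and the scavenger Ackr3. Cxcl12 read 9.19, 9.17, 9.21 and 8.90 in WT vehicle, 8.72, 8.60, 9.21 and 9.35 in the FGF23 group and 9.34, 9.71, 9.57 and 9.64 in KL null. KL null lay above vehicle in every array and overlapped the FGF23 group at its lowest array. The difference from vehicle was 0.45 (SE 0.149) with an adjusted p of 0.0819 in limma, which did not pass. It passed in 5 alternatives, namely array spread as a covariate (adjusted p = 0.00876), both low-spread FGF23 arrays left out (0.0153), only the 2 groups in the fit (0.0237), array weights (0.032) and quantile normalization (0.0427).

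Cxcr4 read 7.22, 7.23, 6.89 and 7.44 in WT vehicle, 7.29, 6.93, 6.97 and 7.01 in the FGF23 group and 7.47, 7.47, 7.62 and 8.07 in KL null. All 4 KL null arrays exceeded all 8 WT arrays, the nearest being vehicle replicate 4. Its difference from vehicle was 0.46 (SE 0.142, adjusted p = 0.0587, limma), which did not pass. It passed in 7 alternatives, namely without vehicle replicate 4 (adjusted p = 0.0391) or KL null replicate 1 (0.0471), with array spread as a covariate (0.0466), array weights (0.0145), trended and robust moderation (0.0382), the replicate number as a block (0.0401) or only genes with a mean of at least 6 (0.0381). Ackr3 had means of 6.65 in vehicle, 6.67 in the FGF23 group and 6.38 in KL null, a KL null difference of -0.26 (adjusted p = 0.205, limma).

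Because both comparisons share the vehicle arrays, the difference between the KL null and FGF23 effects was tested as KL null against FGF23-injected WT. It passed for 5 members, Ccl9 (1.30, adjusted p = 0.00342), Ccr2 (1.21, adjusted p = 0.00413), Ccl6 (1.10, adjusted p = 0.000809), Cxcr4 (0.61, adjusted p = 0.0128) and Cxcl12 (0.60, adjusted p = 0.0184), all higher in KL null (limma, log2 scale). Those 5 are 8.93% of members, against 6.72% of all genes called higher in that comparison, and 0 members were called lower, against 5.25%. For Ccl2 and Ccl3 the difference between the effects was 0.30 (adjusted p = 0.0994) and 0.50 (adjusted p = 0.123), and did not pass. The Cxcl12 call was lost without FGF23 replicate 1 or 2 or KL null replicate 2 or 3 (adjusted p 0.0519 to 0.0622), and without both FGF23 arrays of low spread its difference was 0.29 (adjusted p = 0.228). Leaving out both of those arrays turned its FGF23 difference from vehicle from -0.15 to 0.16. Conversely, Ccl2 passed without FGF23 replicate 1 (0.39, adjusted p = 0.0441) or KL null replicate 1 (0.42, adjusted p = 0.0155) and with array weights (0.40, adjusted p = 0.012). Ccl3 passed without vehicle replicate 4 (0.49, adjusted p = 0.0452) and with only the 2 groups in the fit (0.50, adjusted p = 0.0409).

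After 1 hour of FGF23, 0 of 56 members were called in limma, against 0.0802% of all genes called higher and 0.00502% called lower. The smallest adjusted p of a member was 0.263. At an unadjusted p below 0.05 there were 5 members, against 15.4% of all genes, and all 5 were higher (8.93%, against 10.4%). Differences from vehicle ran from -0.19 to 0.37, and the 95% interval lay within 2-fold in either direction for 55 of 56 members, Ccl28 being the exception. The median half-width of the interval was 0.26. Folds of dim probe sets are compressed, and 40 members had a mean signal below 6. For these the intervals bound only the measured difference, and a larger change in RNA is not excluded.

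The 6 members of smallest p after FGF23 were Ccl7, Ccl20, Cxcr3, Ccr7, Cxcl1 and Ccr6. Ccl7, a monocyte chemoattractant, read 5.01, 4.91, 5.08 and 5.07 in vehicle, 5.57, 5.30, 5.14 and 5.18 in the FGF23 group and 5.24, 5.34, 5.30 and 5.05 in KL null. The FGF23 arrays lay above the vehicle arrays and the KL null arrays overlapped both. The FGF23 difference was 0.28 (adjusted p = 0.263, limma).

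Ccr7, the homing receptor of dendritic and naive T cells, read 5.43, 5.45, 5.41 and 5.20 in vehicle, 5.62, 5.54, 5.53 and 5.58 in the FGF23 group and 5.50, 5.66, 5.57 and 5.33 in KL null. It was the other member whose FGF23 arrays all lay above the vehicle arrays. These 2 members are 3.57%, against 4.09% of all genes. Its difference was 0.20 (adjusted p = 0.309, limma).

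Ccl20, the ligand of Ccr6, read 5.12, 5.36, 5.12 and 5.40 in vehicle, 5.87, 5.54, 5.39 and 5.41 in the FGF23 group and 5.64, 5.55, 5.49 and 5.37 in KL null. The groups overlapped by 1 FGF23 array, at 5.39, below the highest vehicle array. The difference was 0.30 (adjusted p = 0.272, limma). Ccr6 itself read 4.52, 4.85, 4.47 and 4.79 in vehicle, 5.05, 4.87, 4.72 and 4.91 in the FGF23 group and 4.75, 4.83, 4.48 and 4.58 in KL null. FGF23 replicate 3 lay below 2 of the vehicle arrays, and the difference was 0.23 (adjusted p = 0.333, limma).

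Cxcr3, the receptor of Cxcl9 and Cxcl10 on activated T and NK cells, read 5.48, 6.08, 5.99 and 5.50 in vehicle, 6.32, 6.23, 5.96 and 6.03 in the FGF23 group and 6.37, 5.86, 5.86 and 5.80 in KL null. The vehicle arrays fell into 2 low and 2 high values, the high ones overlapping the FGF23 arrays. The FGF23 difference was 0.37 (adjusted p = 0.291, limma). Cxcl1, a neutrophil attractant, read 6.00, 6.32, 6.04 and 5.83 in vehicle, 6.65, 6.52, 6.19 and 6.06 in the FGF23 group and 6.58, 6.49, 6.16 and 6.36 in KL null. The groups overlapped, and the FGF23 difference was 0.31 (adjusted p = 0.312, limma).

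After FGF23, positive differences were most frequent among dim members. Of the 40 members with a mean signal below 6, 34 (85%) were positive, beside 81.6% of the 8311 genes that dim. Of the 16 brighter members, 8 were positive, beside 42.3% of brighter genes. Over all 56 members, 42 were positive (75%, beside 58.7% of all genes) with a median of 0.12. With further quantile normalization 31 were positive (55.4%, beside 53.4%) with a median of 0.04. In KL null against vehicle, 41 were positive (73.2%, beside 56.1% of all genes), and 33 with further quantile normalization (58.9%, beside 51.2%). Of the dim members 72.5% were positive in KL null, beside 66% of dim genes, and of the brighter members 75%, beside 49.1% of brighter genes.

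Among the other ligand and receptor pairs, no member passed in KL null or after FGF23. Cx3cl1, the membrane-bound fractalkine, had means of 8.37 ± 0.42, 8.49 ± 0.19 and 8.42 ± 0.21 in vehicle, FGF23 and KL null (SD, n = 4 each). Its receptor Cx3cr1, carried by resident macrophages and patrolling monocytes, had means of 6.66 ± 0.20, 6.88 ± 0.10 and 6.96 ± 0.14, with a KL null difference of 0.30 (adjusted p = 0.0971, limma). Cx3cl1 itself differed by 0.05 in KL null (adjusted p = 0.913).

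Ccl5, a CC ligand made by T cells and macrophages, had means of 6.47 in vehicle, 6.59 in the FGF23 group and 6.64 in KL null, a KL null difference of 0.17 (adjusted p = 0.575, limma). Of the neutrophil axis, Cxcl1 differed by 0.35 (adjusted p = 0.15), Cxcl2 by 0.36 (adjusted p = 0.117, and 0.0348 without KL null replicate 2) and their receptor Cxcr2 by -0.01 (adjusted p = 0.986) in KL null. The means of Cxcl2 were 4.41, 4.45 and 4.77 in vehicle, FGF23 and KL null, and those of Cxcr2 were 3.24, 3.17 and 3.24. How far so dim a signal as that of Cxcr2 lies above background is unknown. Cxcl16, a transmembrane ligand, had means of 8.64, 8.49 and 8.77 and differed by 0.12 in KL null (adjusted p = 0.604). Its receptor Cxcr6 had means of 4.79, 4.75 and 4.88 and differed by 0.09 (adjusted p = 0.864). In none of these genes did the KL null arrays separate from the vehicle arrays.

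For Ccl20 and Ccr6 the KL null differences were 0.26 (adjusted p = 0.188) and 0.00 (adjusted p = 0.993, limma). Ccl19, a ligand of Ccr7 in lymphoid tissue, had means of 7.03, 7.08 and 6.89 in vehicle, FGF23 and KL null and differed by -0.14 in KL null (adjusted p = 0.759), and Ccr7 differed by 0.14 (adjusted p = 0.391). Ccl19 had 5 probe sets and near-identical copies in the mouse genome, so its value is uncertain. Cxcl13, which organises B-cell follicles, had means of 4.76, 4.96 and 4.78 and differed by 0.02 in KL null (adjusted p = 0.963). Its receptor Cxcr5 had means of 3.46, 3.58 and 3.66 and differed by 0.21 (adjusted p = 0.164). Xcl1, a ligand from T and NK cells, had means of 4.26, 4.52 and 4.38 and differed by 0.12 (adjusted p = 0.694). Its receptor Xcr1, on cross-presenting dendritic cells, had means of 5.32, 5.42 and 5.30 and differed by -0.02 (adjusted p = 0.958). The KL null and vehicle arrays overlapped for all of these lymphoid-tissue genes.

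The other atypical receptors bind ligand on vessels and lymphatics. Ackr1, the Duffy antigen receptor, had means of 3.99, 4.08 and 4.04 in vehicle, FGF23 and KL null, with a KL null difference of 0.05 (adjusted p = 0.846, limma). Ackr2, a scavenger of inflammatory CC ligands, had means of 5.23, 5.28 and 5.16 and differed by -0.07 (adjusted p = 0.789). Ackr4, a scavenger of Ccl19, had means of 5.46, 5.64 and 5.62 and differed by 0.16 (adjusted p = 0.344). In KL null the 4 atypical receptors, Ackr3 included, ran from -0.26 to 0.16.

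In the interferon-induced ligands Cxcl9 and Cxcl10, KL null replicate 1 stood apart from the rest of its group. Cxcl9 read 6.41, 6.49, 6.86 and 6.34 in vehicle, 6.58, 5.81, 6.90 and 6.33 in the FGF23 group and 7.78, 5.93, 5.96 and 5.96 in KL null. KL null replicate 1 was the highest of the 12 arrays while the other 3 KL null arrays were below every vehicle array. The KL null difference was -0.12 (adjusted p = 0.9, limma), and without replicate 1 it was -0.58 (adjusted p = 0.0907).

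Cxcl10 read 7.11, 7.02, 7.45 and 6.86 in vehicle, 6.58, 6.22, 7.53 and 7.48 in the FGF23 group and 8.82, 7.43, 7.47 and 7.66 in KL null. KL null replicate 1 stood highest again, and the other 3 KL null arrays overlapped the highest vehicle array. The difference was 0.73 (adjusted p = 0.181, limma), and without replicate 1 it was 0.41 (adjusted p = 0.425). In the same array Cxcr3 was the highest of its group at 6.37, the mean of 7 T-cell markers was 5.67 against 5.28 to 5.42 in the other KL null arrays, and the mean of 5 NK-cell markers was 4.70 against 4.22 to 4.44. That array was also the highest of its group for the means of 5 B-cell markers (4.55 against 4.16 to 4.47), 7 neutrophil markers (4.53 against 4.21 to 4.33), 2 platelet markers (5.92 against 5.52 to 5.80) and 3 heart and muscle markers (5.47 against 5.24 to 5.27), so the pattern was not particular to T and NK cells. It had the lowest standard deviation of the 4 KL null arrays, 2.195. The part of these values in Cxcl9, Cxcl10 and Cxcr3 was not tested.

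Ccl28, a mucosal epithelial ligand named here after its values were seen, had the widest SE of the 56 members. It read 8.49, 5.71, 7.00 and 4.71 in vehicle, 4.77, 5.86, 8.00 and 7.75 in the FGF23 group and 5.02, 4.45, 4.76 and 4.89 in KL null. Each WT group held 1 array inside the KL null range and 3 above it, so all groups overlapped. The KL null difference of -1.70 had an SE of 0.719 and an adjusted p of 0.182 (limma). With array weights it was -2.08 and passed (adjusted p = 0.048, limma).

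**Figure D3:**
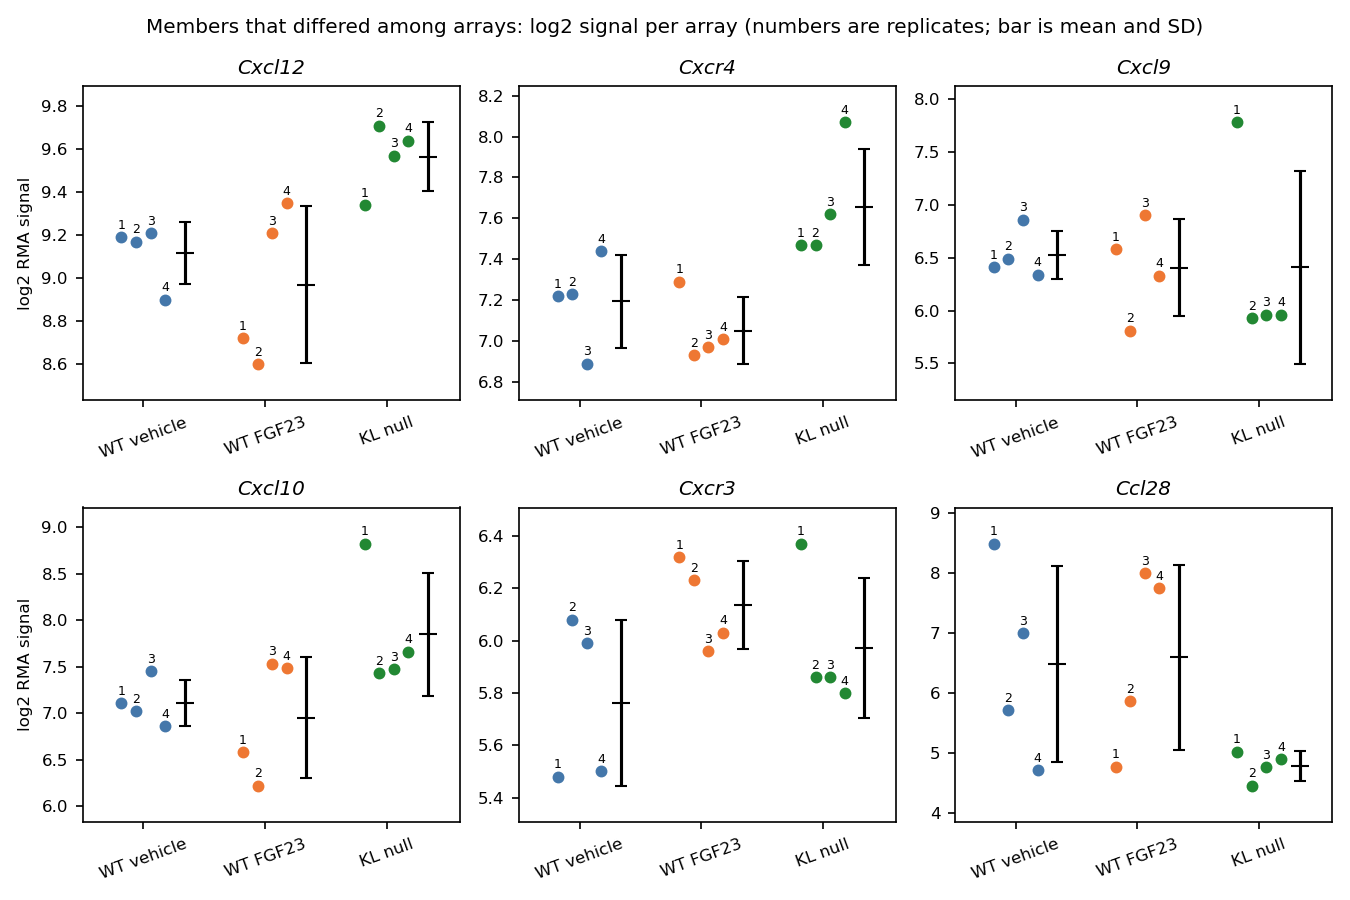
Log2 signal of Cxcl12, Cxcr4, Cxcl9, Cxcl10, Cxcr3 and Ccl28 in each array, by group, with points numbered by replicate and a bar at the mean with the SD (4 arrays each); vertical axes differ between panels and do not start at 0. KL null replicate 1 stands apart for Cxcl9 (7.78) and Cxcl10 (8.82), and Ccl28 ranges from 4.71 to 8.49 among the vehicle arrays.

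Genes around the chemokines were read from 6 lists, beside 3.58% of all genes called higher and 4.44% called lower in KL null against vehicle. Of 22 measured genes of NF-kappaB signalling and its inducing cytokines, 5 rose in KL null, namely Nfkbia (0.69), Tlr2 (0.63), Birc3 (0.63), Nfkbiz (0.61) and Tnfaip3 (0.41), and Ikbkb fell by 0.45 on the log2 scale. Nfkbia, Tnfaip3 and Birc3 are induced by NF-kappaB and Nfkbia and Tnfaip3 restrain it, while Ikbkb is a kinase that activates it. The list's median was 0.11.

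Of 12 adhesion and homing partners, Vcam1 (0.83), an adhesion molecule for monocytes, and Itgb2 (0.87), a leukocyte integrin subunit, rose. Of 10 proteases that cleave chemokines, Mmp12, the macrophage elastase, rose by 3.14. Of 19 genes of receptor signalling, Dock2, a leukocyte activator of Rac, rose by 0.50. Of 12 chemokine-related genes outside the symbol rule, C3ar1, the complement C3a receptor, rose by 1.41. Of 10 genes of interferon signalling to chemokines, none rose and Irf7 fell by 0.48. In all 6 lists 0 genes were called after FGF23 (limma).

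Markers of cell types were also read in KL null against vehicle. Of 12 macrophage markers, 6 rose (Lyz2 1.71, Cd68 1.06, Itgam 0.88, C1qb 0.66, C1qc 0.64 and C1qa 0.61) and Csf1r, the receptor for the macrophage growth factor, fell by 0.55 (adjusted p = 0.0321, limma). Adgre1, which encodes F4/80, differed by 0.25 (adjusted p = 0.444). The mean of the 12 markers ran from 6.80 to 7.16 in vehicle, 6.60 to 7.00 in the FGF23 group and 6.99 to 7.76 in KL null, and none of the markers has a true zero on this scale.

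Among KL null arrays, replicate 1 had the lowest marker mean (6.99), within the WT range, and the lowest Ccl6, Ccl9 and Ccl2. In that array Ccl6, Ccl9, Ccl3 and Ccr2 were still above all 8 WT arrays. In these bulk samples more cells of a type and more RNA per cell cannot be told apart, and the part of the macrophage markers in the members' differences was not tested. Of 6 dendritic-cell markers 1 rose (Itgax, 1.02), and 0 of the 7 T-cell, 5 B-cell, 7 neutrophil and 5 NK-cell markers were called. Of 6 proximal tubule markers 4 fell, with a median of -0.33, and of 6 fibroblast markers 1 rose (Dcn, 0.85). Of 6 endothelial markers 0 were called, with a median of -0.22.

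**Figure D4:**
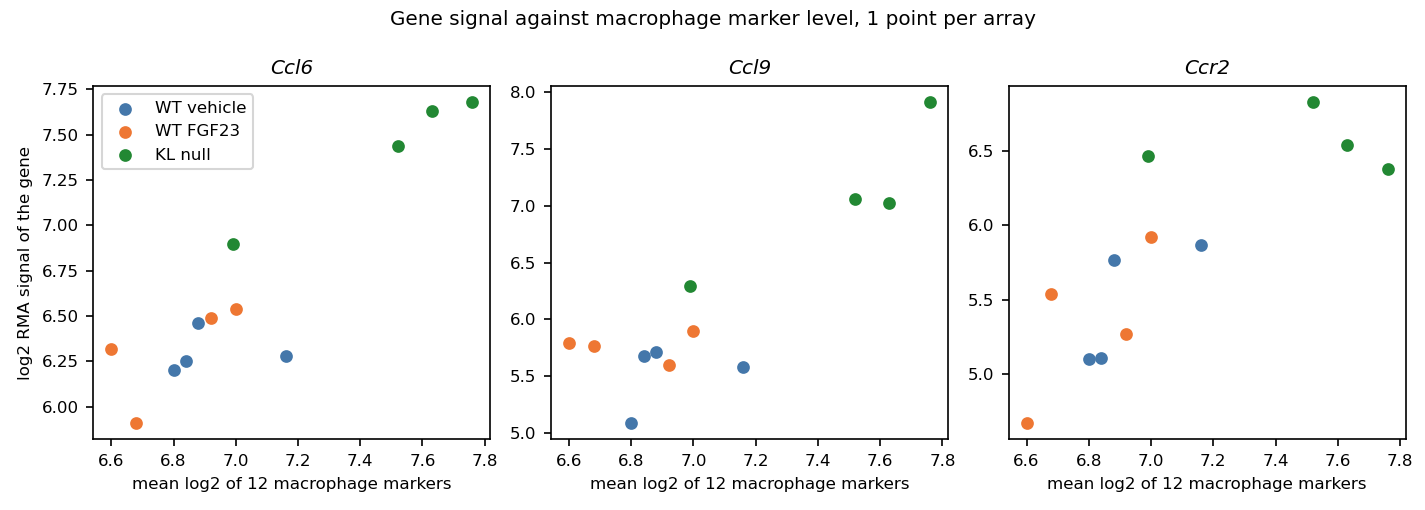
Log2 signal of Ccl6, Ccl9 and Ccr2 (vertical axes, which differ) against the mean log2 signal of 12 macrophage markers (horizontal axis), 1 point per array and 4 arrays per group. KL null replicate 1, at a marker mean of 6.99, lies among the WT arrays on the horizontal axis and above them on the vertical one in all 3 panels.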

How the data were processed

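The authors deposited log2 expression values per probe set; the submitters' processing notes name Partek 6.2 and RMA. That method corrects background, aligns the arrays' distributions and summarises probes, and it compresses the folds of dim probe sets. Its settings are not given in the sources used here. No scanner file was used here, which leaves signal over background untested. Of 28853 probe sets, 21789 had 1 gene symbol, 1621 several and 5443 none; 21698 matched RefSeq GRCm38.p6 by Entrez identifier and 0 symbols were updated. Each of 19938 genes was represented by its probe set of highest mean; 7 probe sets naming several chemokines were left out, and of the members only Ccl19 and Ccl25 had several (the 2 of Ccl25 differed by 0.14 and -0.30 in KL null).

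Groups were compared with limma 3.58.1 in R 4.3.3 (lmFit, eBayes; 12 arrays, 3 group means, 9 residual degrees of freedom; two-sided; Benjamini-Hochberg over all genes), checked on simulated data. The number of arrays limits the precision. Named genes were members called in either comparison with vehicle, the 6 of smallest p after FGF23 and listed ligand and receptor pairs; Ccl28, Ccl17 and Ccr1 were added after their values were seen. The members and lists were chosen with earlier results of these data known. The deviations of same-numbered FGF23 and KL null arrays correlated at 0.14 to 0.26 in the 4 pairs. Over all groups, though, only 1 of 12 arrays correlated best with its own number. The labels give no shared litter, batch or day. Pairing by number is thus not established, and the main fit did not use it. Promoter windows came from RefSeq. In all, 23 alternatives were tried, and the protocol's HBEGF arm was not analysed here.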

Additional observations from a re-analysis of the deposited data

Results flagged for a closer look

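In 7 of 93 groups of 4 arrays, over the 31 genes named by the rule, 1 array's gap to its nearest neighbour exceeded, as a share of the group's range, Dixon's critical value for 4 samples. Chance gives this in about 1 of 20 groups. KL null replicate 1 stood above the other KL null arrays for Cxcl9 (7.78 against 5.93 to 5.96), Cxcl10 (8.82 against 7.43 to 7.66) and Cxcr3 (6.37 against 5.80 to 5.86). WT vehicle replicate 4 stood below the other vehicle arrays for Cxcl12 (8.90 against 9.17 to 9.21), Ccr7 (5.20 against 5.41 to 5.45) and Xcl1 (4.22 against 4.27 to 4.28). FGF23 replicate 1 stood below its group for Cx3cr1 (6.74 against 6.92 to 6.95). Ccl17, chosen after its values were seen and left out of that count, had WT vehicle replicate 2 above its group (5.37 against 4.83 to 4.84).

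The KL null and FGF23 effects differed for 5 members, by a test of the difference itself (limma, log2 scale). The KL null effect exceeded the FGF23 effect by 1.10 for Ccl6, 1.30 for Ccl9, 1.21 for Ccr2, 0.60 for Cxcl12 and 0.61 for Cxcr4.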

How the results depend on the processing

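The 3 comparisons were recomputed under 23 alternatives. In KL null against vehicle, 1598 genes were called, 2852 with array weights and 828 to 1728 with 1 array left out; member calls numbered 5, then 10 with array weights, 2 in an ordinary model without moderation, 3 of 16 tested when only genes with a mean of at least 6 entered, and 3 to 6 with 1 array left out. The 3 called among genes with a mean of at least 6 were Ccl6, Ccl9 and Cxcr4. Ccl2, Ccl3 and Ccr2 were dimmer, with means of 5.57, 4.98 and 5.79 over all arrays, and did not enter that fit. Ccl6 and Ccl9 were called in 23 of 23 alternatives (adjusted p 3.6e-05 to 0.0142 and 8.51e-05 to 0.0202) and Ccr2 in 21 of 22, not in the ordinary model (0.0564). Ccl2 was called in 14 of 22 and Ccl3 in 16 of 22, and neither in the ordinary model. In FGF23 against vehicle, 17 genes were called, 8 without both FGF23 arrays of low spread, 7 with only those 2 groups, 10 with quantile normalization, 6 with median centring, 11 with the spread covariate, 2 in the ordinary model and 4 to 14 with 1 array left out, and 0 members in every alternative. In KL null against FGF23, 2386 genes were called, 944 without both low-spread arrays and 1218 to 2794 with 1 array left out. Members numbered 5, 10 with array weights and 4 to 7 with 1 array left out. Some alternatives called members lower there (limma). Ccl28 was lower without FGF23 replicate 1 (-2.42, adjusted p = 0.0398) and without both low-spread arrays (-3.09, 0.0226). It was also lower with the spread covariate (-2.57, 0.0189) and array weights (-2.32, 0.0325). Ackr3 was lower with the spread covariate (-0.39, 0.0354) and array weights (-0.37, 0.0424). The cause of these changes was not tested beyond fewer samples or genes entering a fit.

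With the replicate number as a block, 2396 genes and 5 members were called in KL null against FGF23, and no call of a named member changed there. Whether the numbers pair any arrays is not established. Correlations of same-numbered arrays ran from 0.14 to 0.26 between KL null and FGF23, and from -0.22 to 0.19 in the comparisons with vehicle. Over all groups, 1 of 12 arrays correlated best with its own number. The block gave 1548 and 6 genes and 7 and 0 members in KL null and FGF23 against vehicle, and the members gained in KL null were Cxcr4 (adjusted p = 0.0401) and Ccl17 (0.037).

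Differences of uncalled members changed sign as follows (log2 scale). Array weights gave in KL null against vehicle Cx3cl1 -0.07, and in FGF23 against vehicle Cxcl10 0.01 and Ackr2 -0.01, and in KL null against FGF23 Ccl5 -0.09 and Ackr4 0.03. Quantile normalization gave in KL null against vehicle Cxcl13 -0.05, and in FGF23 against vehicle Ccl6 -0.06, Ackr3 -0.03, Cxcl2 -0.07, Xcr1 -0.03, Ackr2 -0.08 and Ccl17 -0.04, and in KL null against FGF23 Ccl20 0.01, Ackr1 0.02 and Ackr4 0.02. Median centring gave in KL null against vehicle Cxcl13 -0.04, and in FGF23 against vehicle Ccl6 -0.05, Ackr3 -0.05, Cxcl2 -0.03, Ccl19 -0.02 and Ackr2 -0.03. The spread covariate gave in KL null against vehicle Cxcl13 -0.04 and Ackr1 -0.03, and in FGF23 against vehicle Ccr2 0.10, Cxcl12 0.12, Cxcl10 0.04, Xcr1 -0.10, Ackr1 -0.12 and Ackr2 -0.06, and in KL null against FGF23 Ccl7 0.01, Ccl20 0.09, Xcr1 0.01, Ackr1 0.09 and Ackr4 0.03. Omitting both low-spread FGF23 arrays gave in FGF23 against vehicle Ccr2 0.13, Cxcl12 0.16, Cxcl2 -0.08, Cxcr2 0.01, Cxcl9 0.09, Cxcl10 0.39, Cxcl16 0.02, Cxcr6 0.16, Xcr1 -0.06, Ackr1 -0.06 and Ackr2 -0.04, and in KL null against FGF23 Ccl7 0.07, Ccl20 0.11, Ccl5 -0.16, Cxcr2 -0.02, Cxcr6 -0.07, Xcl1 0.08, Xcr1 0.04, Ackr1 0.11 and Ackr4 0.08. Leaving out 1 array in KL null against vehicle gave Cx3cl1 -0.14 to 0.17, Cxcr2 -0.06 to 0.03, Cxcl9 -0.58 to 0.04, Cxcr6 -0.02 to 0.21, Cxcl13 -0.05 to 0.08 and Xcr1 -0.09 to 0.06. Leaving out 1 array in FGF23 against vehicle gave Ccl6 -0.06 to 0.15, Ccr2 -0.30 to 0.11, Ackr3 -0.05 to 0.10, Cx3cl1 -0.08 to 0.23, Cxcl2 -0.01 to 0.09, Cxcr2 -0.12 to 0.02, Cxcl9 -0.28 to 0.08, Cxcl10 -0.35 to 0.09, Cxcr6 -0.15 to 0.19, Ccl19 -0.13 to 0.16, Ackr2 -0.06 to 0.10 and Ccl28 -0.47 to 0.79. Leaving out 1 array in KL null against FGF23 gave Ccl7 -0.12 to 0.03, Ccl20 -0.09 to 0.07, Ccr7 -0.10 to 0.01, Cxcl1 -0.06 to 0.14, Cx3cl1 -0.14 to 0.01, Ccl5 -0.11 to 0.14, Cxcr2 -0.03 to 0.11, Cxcr6 -0.10 to 0.23, Ackr1 -0.10 to 0.02 and Ackr4 -0.07 to 0.01. None of these was called in its comparison, and the cause was not tested. Without scanner files, how far the dim members lie above background is unknown.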
